A study of Mus musculus with 8 samples.

Results

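Desmosome and tight junction genes were followed in the interfollicular epidermis of mice painted with DMBA, a carcinogen, and TPA, a tumour promoter. Members were chosen by gene symbol: every probe set that the platform annotation assigns to a claudin, a desmoglein, a desmocollin, a plakophilin, a ZO protein, or to Dsp, Jup, Perp, Ocln, Ppl, Evpl, Marveld2 or F11r. This gave 55 of 45037 probe sets, standing for 39 of 17097 genes. The rule used no measured value, but it was set with earlier results of these data known. A mouse reference table lists 47 genes with such symbols, and 8 of them, Dsg3, Dsg4 and Pkp3 among them, were not analysed here. Of the samples, 4 came from animals with a conditional knockout of G9a (cKO) and 4 from wild-type animals (WT), each on its own array. Both groups received the same treatment from an age of 8 weeks: DMBA at 0.25 mg/ml and TPA at 0.02 mg/ml, 200 µl each, once a week for 6 weeks on shaved back skin, taken before tumours formed. All animals are labelled as 15 weeks old, and the labels name neither the Cre driver nor the deleted part of the gene, nor whether each replicate is a separate animal. The p-values therefore measure the spread between these samples, which may be technical.

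Desmosomes are the junctions that hold keratinocytes together under mechanical load. Desmogleins and desmocollins, both cadherins, bind across the gap between cells. Plakoglobin (Jup) and the plakophilins bind the cadherin tails, and desmoplakin (Dsp) ties them to the keratin filaments. Tight junctions seal the space between cells in the granular layer. There claudins and occludin (Ocln) span the membrane and the ZO proteins anchor them. G9a, encoded by Ehmt2, methylates lysine 9 of histone H3, and TPA activates protein kinase C.

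A probe set of Ehmt2, the gene of G9a, read 7.07, 6.72, 6.35 and 6.30 in the cKO arrays, against 9.77, 9.25, 9.69 and 9.26 in WT (log2 expression). The groups did not overlap, and this probe set of Ehmt2 fell by 2.88 (SE 0.19, limma adjusted p = 0.000244). Its other probe set stood at 0.01 (limma adjusted p = 0.996). As a check of the tissue, the keratin genes Krt14 and Krt5 of the basal layer read 12.8 to 12.9 and 12.5 to 12.7 over the 8 arrays at their brighter probe sets, where all values ran from 3.06 to 13.0. The mean level of 5 spinous marker genes was 11.4 to 11.6 in the cKO arrays and 11.4 to 11.5 in WT. That of 6 granular marker genes was lower, 6.43 to 6.61 in cKO and 6.49 to 6.85 in WT. Array medians lay between 5.72 and 5.80. On the first principal component (36.9% of the variance) WT 4 stood at 23.5, above the cKO range of -10.7 to 19.2, while the other WT arrays lay at -20.6 to -11.4. Array cKO 2 stood at -10.7, the lowest of its group. On the second component (23.0% of the variance) the genotypes did not mix, with cKO at 7.35 to 20.0 and WT at -21.2 to -2.58. For members given array by array with a change of over 0.05 in size, values with arrays left out (1 array, or both cKO 2 and WT 4) are given where these moved the change by over 1.5 times. In each group, cKO 2 and WT 4 lay furthest toward the other genotype on the first component. Leaving out both sets the groups further apart there, so the fit without them is not a neutral check.

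No desmosome or tight junction gene passed the test. Of the 55 probe sets, 0 had a limma adjusted p under 0.05, beside 210 of 45037 probe sets (0.466%) over the whole table (0.393% higher and 0.0733% lower in cKO). At an unadjusted limma p under 0.05 there was 1 of 55, against 7.98% of all probe sets. The groups did not overlap at 3 of 55 (5.45%), against 4.89% of all probe sets. The log2 changes, cKO minus WT, ran from -0.46 for Cldn4 to 0.17 for Cldn8, with a median of -0.01 over the members and 0.01 over all probe sets. Positive changes numbered 26 and negative ones 29. In bulk RNA, fewer cells of a type and less RNA per cell cannot be told apart.

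The arrays set limits on what could have been missed. The 95% interval of the change lay within 1.5-fold either way at 54 of the 55 probe sets (98.2%), against 97.3% of all probe sets, and within 1.2-fold at 38 of 55 (69.1%, against 72.0%). These intervals are not adjusted for the number of probe sets, and both bounds were picked after the values were seen. They bound the change in array signal, after 25 ng of RNA per sample was amplified over 17 cycles. How far amplification alters the size of a change was not tested. Cldn4 was the exception at 1.5-fold, with an interval from -1.03 to 0.10. By mean over the 8 arrays, 31 of the 55 probe sets lay in the upper 50% of the table. The files hold no detection call for the other 24, and a narrow interval on a dim probe set need not speak for its transcript. Among the 31, 30 intervals lay within 1.5-fold and 18 within 1.2-fold.

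**Figure D1:**
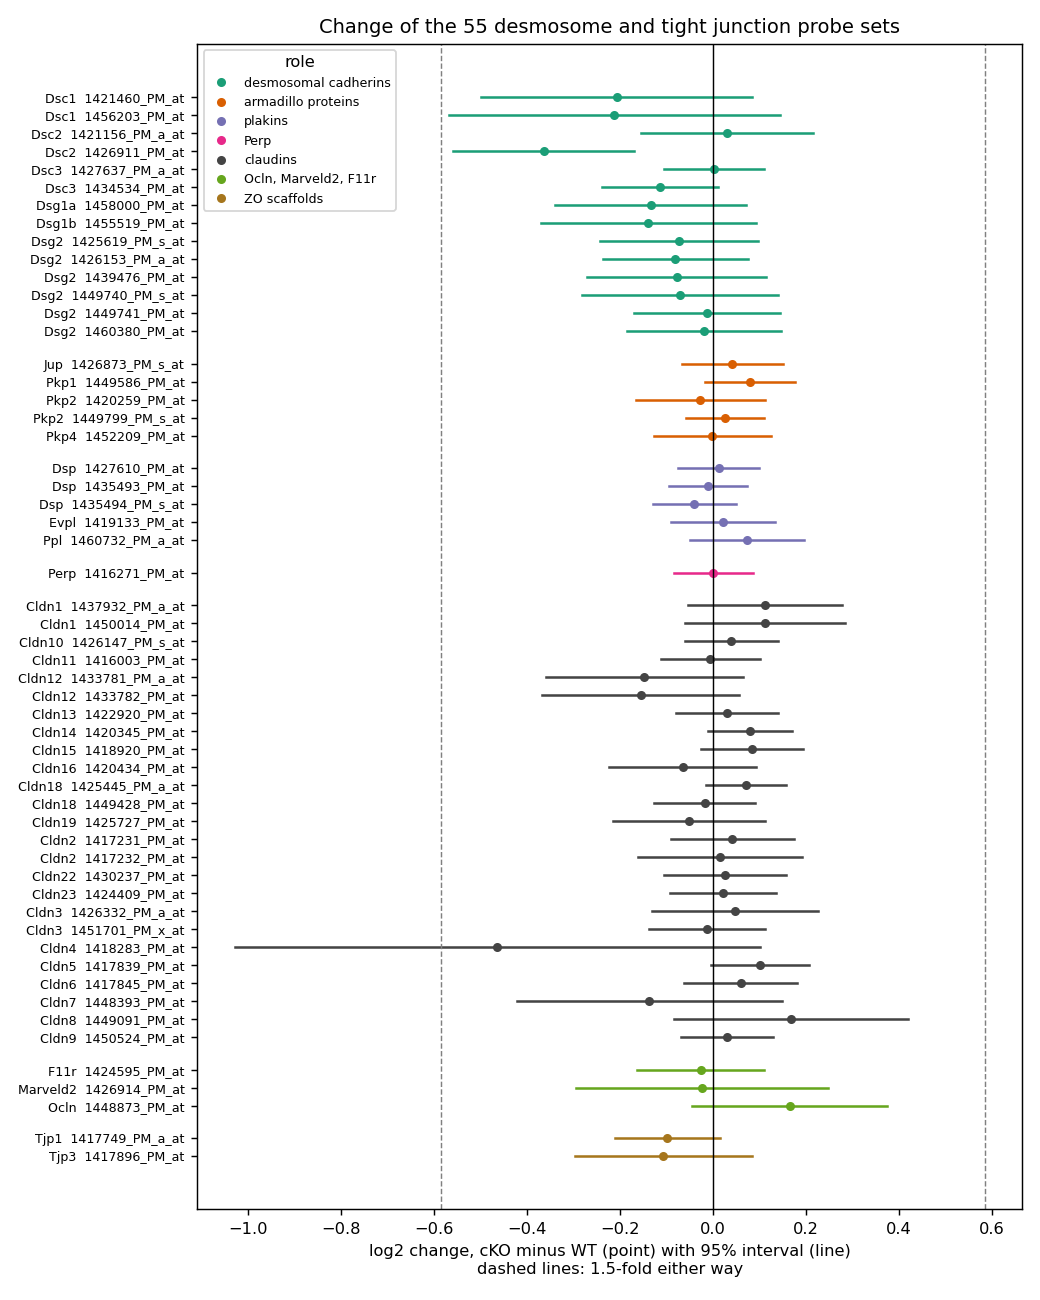
Log2 change (cKO minus WT, x axis) of each of the 55 probe sets, listed down the page by role, as a point with its 95% interval as a line; dashed lines mark 1.5-fold either way. The interval of Cldn4, from -1.03 to 0.10, crosses the dashed line, and that of 1 Dsc2 probe set, from -0.56 to -0.17, leaves out 0.

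The desmosomal cadherins had 14 probe sets for 6 genes, all on chromosome 18, and 12 of the 14 changes were below 0. Of those 12, 6 belong to Dsg2 alone, so that the probe sets are not separate observations. The changes ran from -0.36 to 0.03 with a median of -0.08.

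Dsc2, desmocollin 2, is the desmocollin found most widely outside stratified epithelia. The lower-reading of its 2 probe sets read 4.85, 4.64, 4.59 and 4.60 in the cKO arrays, against 4.85, 4.98, 5.16 and 5.15 in the WT arrays. The change of -0.36 (SE 0.09, n = 4 each) was the 1 member change with an unadjusted limma p under 0.05 (0.00211). Its limma adjusted p was 0.168, and its exact p by permutation was 0.0571. Arrays cKO 1 and WT 1 met at 4.85, and the other 3 cKO arrays lay below every WT array. With array weights, under which 1.68% of all probe sets were called, the change was -0.39 and the limma adjusted p 0.0482. The other Dsc2 probe set read 5.18, 5.37, 5.10 and 5.34 in cKO and 5.05, 5.20, 5.36 and 5.24 in WT, a change of 0.03 (SE 0.08, limma adjusted p = 0.988). The 2 probe sets thus disagreed, and both are below the upper 50% of the table by mean. Their mean changed by -0.17 (limma adjusted p = 0.509 over genes).

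Dsc1 and Dsg1a, desmocollin 1 and a desmoglein 1 gene, belong to the upper living layers of the epidermis. Dsc1 read 7.42, 7.48, 7.97 and 7.81 in cKO at 1 probe set, against 7.82, 7.88, 8.09 and 7.71 in WT. At its other probe set Dsc1 read 7.23, 6.88, 7.53 and 7.36 in cKO and 7.32, 7.50, 7.82 and 7.22 in WT. Both probe sets of Dsc1 stood at -0.21 (SE 0.13 and 0.16, limma adjusted p = 0.801 and 0.865), and the groups overlapped at both. The first stood at -0.12 without cKO 1 and -0.14 without WT 3, and the second at -0.09 without cKO 2 and -0.09 without WT 3. All 8 arrays deviated from their group's mean in the same direction at the 2 probe sets. Dsg1a read 10.06, 10.01, 10.24 and 10.36 in cKO, against 10.24, 10.15, 10.44 and 10.37 in WT. Its change was -0.13 (SE 0.09, limma adjusted p = 0.834). It was -0.08 without cKO 2, -0.09 without WT 3 and -0.06 without both cKO 2 and WT 4. Dsg1b read 7.30, 7.18, 7.57 and 7.50 in cKO, against 7.46, 7.48, 7.76 and 7.41 in WT. Its change was -0.14 (SE 0.10, limma adjusted p = 0.860), with -0.07 without cKO 2 and -0.06 without WT 3. These desmoglein 1 genes are near copies of each other, so the share of each in its probe set is uncertain.

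Dsc3, the desmocollin of the lower layers, read 11.03, 10.83, 10.96 and 10.93 in cKO at its higher-reading probe set, against 11.03, 10.98, 11.11 and 11.09 in WT. This is a change of -0.11 (SE 0.05, limma adjusted p = 0.672, exact p = 0.0857 by permutation), and -0.07 without both cKO 2 and WT 4. The other Dsc3 probe set ran from 10.63 to 10.77 in cKO and from 10.64 to 10.74 in WT and its change rounded to 0.00 (SE 0.05). Dsg2, desmoglein 2, had 6 probe sets with changes of -0.08 to -0.01 and limma adjusted p of 0.901 to 0.995. Without both cKO 2 and WT 4 these changes ran from -0.18 to -0.07 (limma adjusted p of 0.288 to 0.732). At its brightest probe set Dsg2 read 9.35, 9.41, 9.21 and 9.13 in cKO and 9.32, 9.35, 9.34 and 9.16 in WT, so that the cKO arrays covered the whole span of the WT arrays. The 6 probe sets of Dsg2 deviated the same way in 6 of the 8 arrays.

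The plaque proteins, which link the cadherins to keratin filaments, showed small changes and a small spread. Dsp read 12.80, 12.76, 12.82 and 12.78 in cKO at its brightest probe set, against 12.81, 12.79, 12.82 and 12.79 in WT. That is a change of -0.01 (SE 0.04, interval -0.09 to 0.07, limma adjusted p = 0.992). The 8 arrays of this probe set lay within 0.06 of each other. This probe set, and that of Perp below, read near the highest value of the table, 13.0. Whether the signal saturates there, which would narrow changes and spread, was not tested. The other 2 probe sets of Dsp stood at 0.01 and -0.04. Periplakin (Ppl) and envoplakin (Evpl), plakins that also build the cornified envelope, stood at 0.07 (SE 0.05) and 0.02 (SE 0.05), and Ppl at 0.13 without both cKO 2 and WT 4. Ppl ran from 10.18 to 10.35 in cKO and from 10.15 to 10.29 in WT, and Evpl from 10.08 to 10.24 in cKO and from 10.11 to 10.20 in WT.

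Jup, plakoglobin, read 11.30, 11.31, 11.40 and 11.38 in cKO and 11.29, 11.36, 11.35 and 11.22 in WT, a change of 0.04 (SE 0.05, limma adjusted p = 0.947). Plakophilin 1 (Pkp1), the plakophilin of the upper layers, read 11.86, 11.76, 11.83 and 11.76 in cKO, against 11.73, 11.68, 11.74 and 11.74 in WT. Every cKO array of Pkp1 lay above every WT array. The difference was small, 0.08 (SE 0.04, interval -0.02 to 0.18), with an exact permutation p of 0.0286, the smallest that 4 against 4 allows, and a limma adjusted p of 0.728. Plakophilin 4 (Pkp4) ran from 10.44 to 10.62 in cKO and from 10.45 to 10.62 in WT. Plakophilin 2 (Pkp2), best known from heart, read between 3.75 and 4.27 in cKO and between 3.71 and 4.25 in WT over its probe sets, near the bottom of the value range. Perp, a tetraspan protein of the desmosome and a target of p53 and p63, read 12.50, 12.44, 12.44 and 12.48 in cKO and 12.44, 12.47, 12.48 and 12.47 in WT. Its interval was -0.08 to 0.09 (SE 0.04, limma adjusted p = 0.998), and the 8 arrays lay within 0.06 of each other. The sign of so small a change turned under 6 of the 20 alternative settings.

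**Figure D2:**
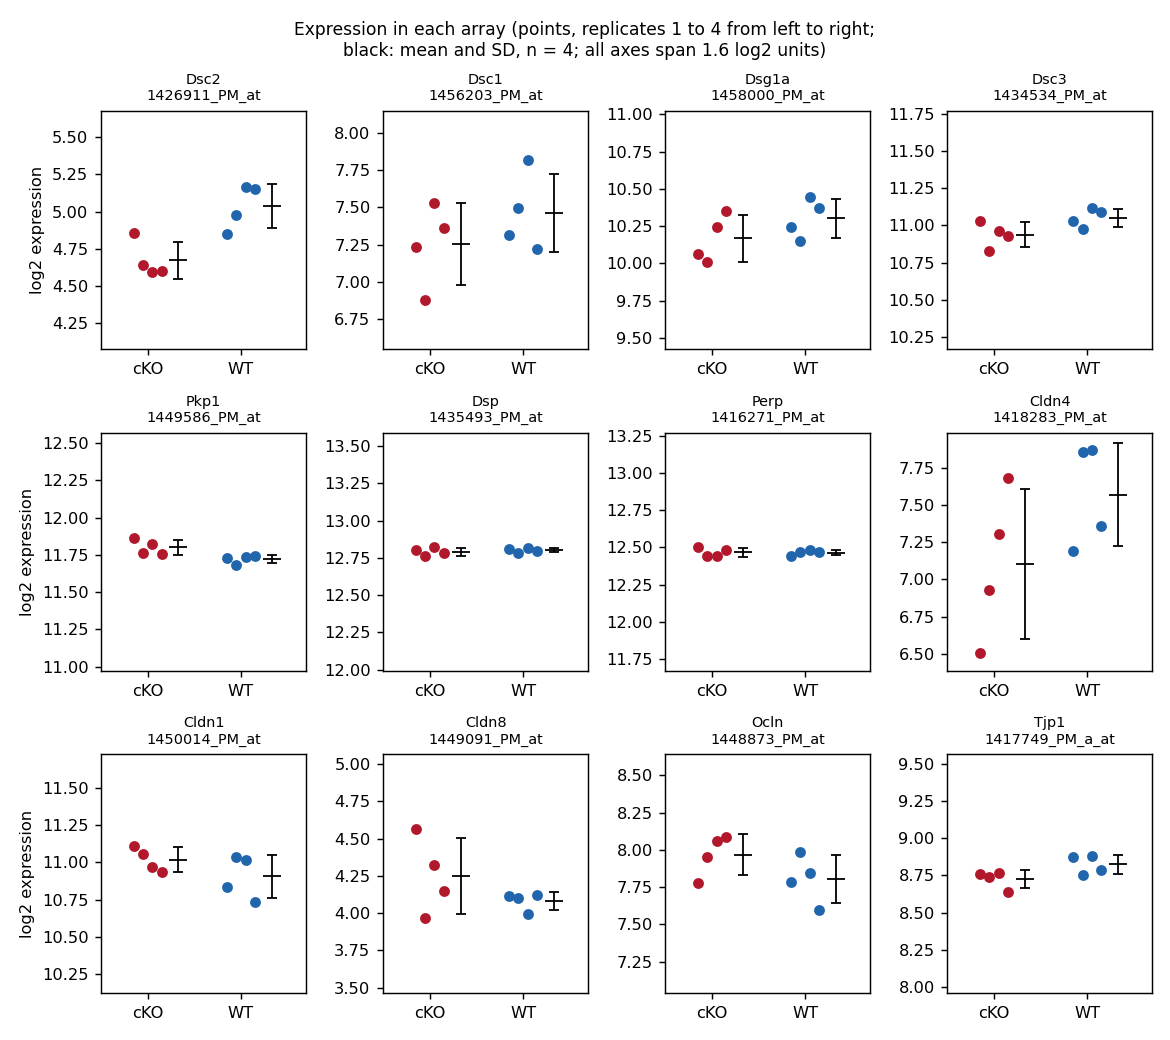
Log2 expression (y axis, the same span in every panel) of 12 probe sets in the 4 cKO arrays (red, left) and the 4 WT arrays (blue, right), with mean and SD in black. Dsp and Perp lie within 0.06 over the 8 arrays, Cldn4 spreads over 1.36, and at Pkp1 all cKO points lie above all WT points.

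Of the 25 claudin probe sets, for 20 genes, 20 lay outside the upper 50% of the table by mean, and those inside it belonged to Cldn1, Cldn4, Cldn12 and Cldn14. Of the claudin changes, 16 were above 0 and 9 below, with a median of 0.03.

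Cldn4 is a claudin found in the granular layer and in many simple epithelia, and it had the widest change and the widest spread of all members. It read 6.50, 6.93, 7.30 and 7.68 in the cKO arrays, against 7.19, 7.86, 7.87 and 7.36 in the WT arrays. The means were 7.10 ± 0.50 in cKO and 7.57 ± 0.35 in WT (SD, n = 4 each). Arrays cKO 1 and cKO 2 lay below every WT array, while cKO 4 lay above WT 1 and WT 4. The change of -0.46 (SE 0.25) did not pass (limma adjusted p = 0.736, exact permutation p = 0.171). Leaving out cKO 1 brought it to -0.26, and without both cKO 2 and WT 4 it was -0.48. Cldn3, the neighbour of Cldn4 on chromosome 5, stood at 0.05 and -0.01 at its 2 probe sets, which read 4.02 to 4.78 in cKO and 4.01 to 4.73 in WT.

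The promoters of the claudin with the widest change, of the claudin best known for the skin barrier and of occludin are shown because they are the tight junction genes that this section describes in most detail. The windows are those of RefSeq (GRCm38.p6), 300 bases around a start site and mostly before it. Capitals mark the motifs searched on both strands, which are the AP-1 element TGANTCA, through which TPA is known to act on many genes, the Snail E-box CAGGTG, the GC box GGGCGG and the Grainyhead motif AACCGGTT. No motifs overlapped in these windows.
Cldn4, chr5:134946885-134947184, minus strand: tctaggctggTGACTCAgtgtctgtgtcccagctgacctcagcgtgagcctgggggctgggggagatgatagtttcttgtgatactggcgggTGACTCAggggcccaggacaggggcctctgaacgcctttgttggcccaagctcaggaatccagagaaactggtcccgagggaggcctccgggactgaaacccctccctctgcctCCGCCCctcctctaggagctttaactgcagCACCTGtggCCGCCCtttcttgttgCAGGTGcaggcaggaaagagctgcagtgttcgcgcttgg
Cldn1, chr16:26371790-26372089, minus strand: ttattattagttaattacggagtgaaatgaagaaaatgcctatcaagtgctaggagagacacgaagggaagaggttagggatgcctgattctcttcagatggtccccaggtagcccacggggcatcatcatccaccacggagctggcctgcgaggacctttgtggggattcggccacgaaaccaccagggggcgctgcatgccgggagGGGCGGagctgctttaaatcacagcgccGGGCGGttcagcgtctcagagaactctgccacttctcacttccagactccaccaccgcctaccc
Ocln, chr13:100552669-100552968, minus strand, 1 of 2 windows listed: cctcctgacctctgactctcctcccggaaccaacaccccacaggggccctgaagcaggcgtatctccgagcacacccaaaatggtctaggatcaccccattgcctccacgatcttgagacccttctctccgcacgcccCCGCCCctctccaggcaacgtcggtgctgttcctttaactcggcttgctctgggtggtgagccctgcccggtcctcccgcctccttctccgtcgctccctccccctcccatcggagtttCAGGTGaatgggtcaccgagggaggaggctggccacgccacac
The window of Cldn4 held 6 motif matches: 2 AP-1 elements, 2 E-boxes and 2 GC boxes. That of Cldn1 held 2 GC boxes, and that of Ocln 1 E-box and 1 GC box. Over the 36 windows listed for 24 member genes, the AP-1 element was in 3 (8.33%), against 7.81% of all 32851 windows. The E-box was in 14 (38.9%, against 20.2%), the GC box in 22 (61.1%, against 35.7%) and the Grainyhead motif in 0 (against 0.146%). The median number of CpG (a C followed by a G) per window was 10 for members and 7 over all windows. How far base content accounts for the motif shares was not tested. Of the desmosomal genes only Dsp, Jup and Pkp4 had windows, so these shares are mostly those of tight junction genes. Windows of 1 gene overlap, and a match in letters is a description of sequence only.

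Claudin 1 (Cldn1), without which mice lose water through the skin, read 11.11, 11.06, 10.97 and 10.93 in cKO at its higher-reading probe set, against 10.83, 11.04, 11.02 and 10.73 in WT. At the other probe set Cldn1 read 9.86, 9.84, 9.79 and 9.83 in cKO and 9.64, 9.81, 9.89 and 9.54 in WT. Both probe sets of Cldn1 stood at 0.11 (SE 0.08 and 0.07, limma adjusted p = 0.834 and 0.825), and WT 4 and WT 1 were the lowest arrays at both. Without WT 4 the changes were 0.06 and 0.05, and without both cKO 2 and WT 4 they were 0.04 and 0.05. Cldn12 read 8.45, 8.12, 8.21 and 8.04 in cKO at its brighter probe set, against 8.42, 8.18, 8.38 and 8.43 in WT. Its probe sets stood at -0.15 and -0.16 (SE 0.09 each, limma adjusted p = 0.812 and 0.790), and the groups overlapped. At the dimmer probe set of Cldn12 the values were 5.20, 5.01, 4.89 and 4.74 in cKO and 5.17, 5.03, 5.23 and 5.04 in WT. Without cKO 1 the changes of Cldn12 were -0.23 and -0.24, and without cKO 4 they were -0.09 and -0.08. Without both cKO 2 and WT 4 the brighter one stood at -0.09.

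Cldn8, a claudin known from kidney tubules, had the largest positive change, 0.17 (SE 0.11, limma adjusted p = 0.831). It read 4.56, 3.97, 4.32 and 4.15 in cKO, against 4.11, 4.10, 3.99 and 4.12 in WT. The 4 WT arrays of Cldn8 lay together and the cKO arrays spread around them, from below to above. The change of Cldn8 was 0.06 without cKO 1 (limma adjusted p = 0.905), 0.26 without cKO 2, and 0.27 without both cKO 2 and WT 4 (limma adjusted p = 0.246). Cldn5, the claudin of endothelial cells, read 4.95, 4.90, 4.87 and 4.85 in cKO, against 4.76, 4.86, 4.84 and 4.73 in WT, and overlapped only at cKO 4 and WT 2. Its change was 0.10 (SE 0.05, limma adjusted p = 0.655). Of 8 endothelial marker genes, with 11 probe sets, 0 passed, beside 0.466% of all probe sets. The changes of these markers ran from -0.08 to 0.11 with a median within 0.01 of 0. Their mean level was 4.75 to 4.87 in the cKO arrays and 4.77 to 4.83 in the WT arrays. Their part in the value of Cldn5 was not tested. Cldn15, a claudin of the gut, stood at 0.08 (SE 0.05), with 5.46, 5.50, 5.42 and 5.41 in cKO and 5.43, 5.27, 5.40 and 5.34 in WT, and at 0.05 without WT 2.

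Besides Pkp1, 2 claudins had groups that did not overlap, and these were chosen after their values were seen. Cldn14 read 6.39 to 6.44 in cKO and 6.29 to 6.38 in WT (0.08, SE 0.04, limma adjusted p = 0.693). Cldn18 read 4.99 to 5.06 in cKO and 4.94 to 4.99 in WT at 1 probe set (0.07, SE 0.04, limma adjusted p = 0.734), while its other probe set stood at -0.02. The other claudins, Cldn2, Cldn6, Cldn7, Cldn9, Cldn10, Cldn11, Cldn13, Cldn16, Cldn19, Cldn22 and Cldn23, stood between -0.14 (Cldn7) and 0.06 (Cldn6). Cldn7 read 5.19, 5.38, 5.23 and 5.25 in cKO, against 5.49, 5.66, 5.46 and 4.99 in WT, where WT 4 lay below all other arrays and the other 3 WT arrays above all cKO arrays. Its change was -0.27 without WT 4 (limma adjusted p = 0.144), -0.31 without both cKO 2 and WT 4 (limma adjusted p = 0.0649) and -0.05 without WT 2.

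Occludin (Ocln), the first membrane protein found in tight junctions, read 7.78, 7.95, 8.06 and 8.08 in cKO, against 7.78, 7.99, 7.85 and 7.60 in WT. The change of 0.16 (SE 0.09, interval -0.05 to 0.38) did not pass (limma adjusted p = 0.758), and it was 0.10 without WT 4 and likewise without both cKO 2 and WT 4. Tricellulin (Marveld2), which seals the points where 3 cells meet and is the neighbour of Ocln on chromosome 13, stood at -0.02 (SE 0.12), at 0.13 without both cKO 2 and WT 4, and spread over 0.54. The adhesion molecule JAM-A (F11r) read 8.74, 8.80, 8.77 and 8.81 in cKO and 8.88, 8.73, 8.93 and 8.68 in WT. Its change was -0.03 (SE 0.06), and all cKO arrays lay inside the WT range. ZO-1 (Tjp1) read 8.76, 8.74, 8.77 and 8.64 in cKO, against 8.87, 8.75, 8.88 and 8.79 in WT. That is a change of -0.10 (SE 0.05, limma adjusted p = 0.703, exact permutation p = 0.0857), and the groups met between 8.75 and 8.77. ZO-3 (Tjp3) stood at -0.11 (SE 0.08, limma adjusted p = 0.885). Its change was -0.03 without cKO 2, -0.17 without cKO 3, -0.07 without WT 4 and 0.01 without both cKO 2 and WT 4.

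The spread between arrays is given without regard to genotype. The distance from the lowest to the highest of the 8 arrays was 0.06 for Perp and for 1 probe set of Dsp, at most 0.20 for every plakin probe set, and 1.36 for Cldn4. Its median was 0.26 over the members and 0.27 over all probe sets. Among the cadherins it reached 0.94, at Dsc1.

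**Figure D3:**
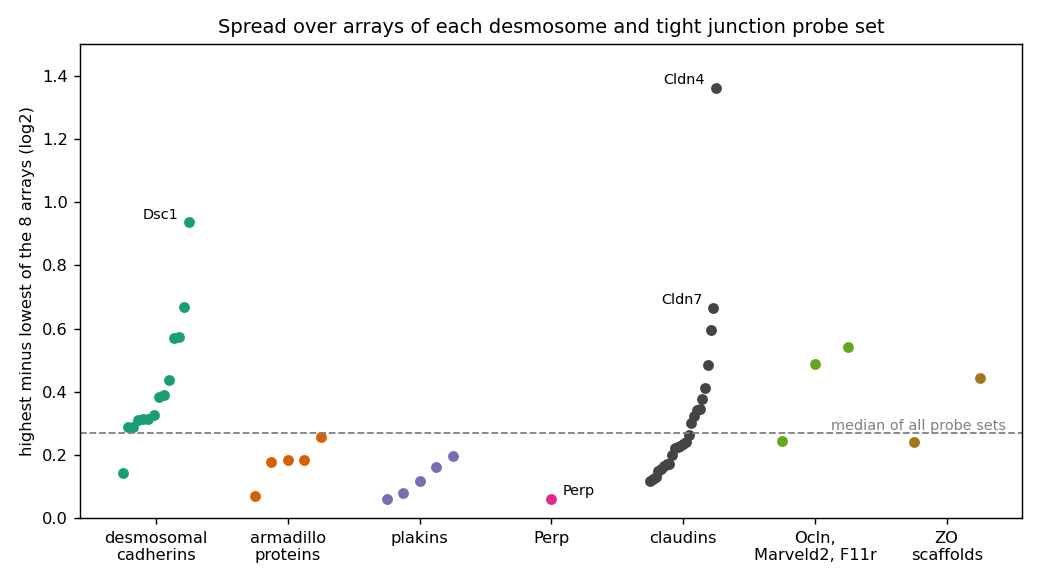
Highest minus lowest value over the 8 arrays (y axis, log2) of each of the 55 probe sets, by role along the x axis; the dashed line is the median of all probe sets, 0.27. Plakins and Perp stay at or under 0.20, while Cldn4 reaches 1.36 and Dsc1 0.94.

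Deviations within each genotype were compared with those of marker lists, as a description over 4 arrays each. The mean deviation of the Dsc1, Dsg1a and Dsg1b probe sets from the group's mean was -0.11, -0.23, 0.21 and 0.14 in cKO 1 to 4, and -0.08, -0.04, 0.23 and -0.11 in WT 1 to 4. Cldn4 deviated by -0.60, -0.18, 0.20 and 0.58 in cKO and by -0.38, 0.29, 0.30 and -0.21 in WT. Dsg2 ran the other way in cKO, at 0.09, 0.10, -0.06 and -0.13, but not in WT, at 0.01, 0.08, 0.06 and -0.15. Spinous markers deviated by -0.05, -0.09, 0.03 and 0.10 in the cKO arrays, in the same directions as Dsc1 and Dsg1, and by at most 0.02 in WT. Granular markers deviated by 0.08, -0.06, 0.08 and -0.10 in cKO and by -0.19, 0.00, 0.02 and 0.17 in WT. In cKO 1, cKO 4 and WT 4 their sign was opposite to that of Dsc1 and Dsg1 and of Cldn4. Basal markers deviated by at most 0.08 in any array. Markers of activated keratinocytes (3 genes measured) deviated by -0.62 in WT 4 and by 0.35 and 0.43 in WT 2 and WT 3. Among the WT arrays, Cldn1 and Ocln were lowest in WT 4 and above their mean in WT 2 and WT 3. The cKO arrays did not share this match: the activated markers deviated there by -0.11, 0.11, 0.01 and -0.01. Cldn1 had the opposite sign in cKO 1 and cKO 3, and Ocln in cKO 2 and cKO 4. The part of these markers in the values of the junction genes was not tested.

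**Figure D4:**
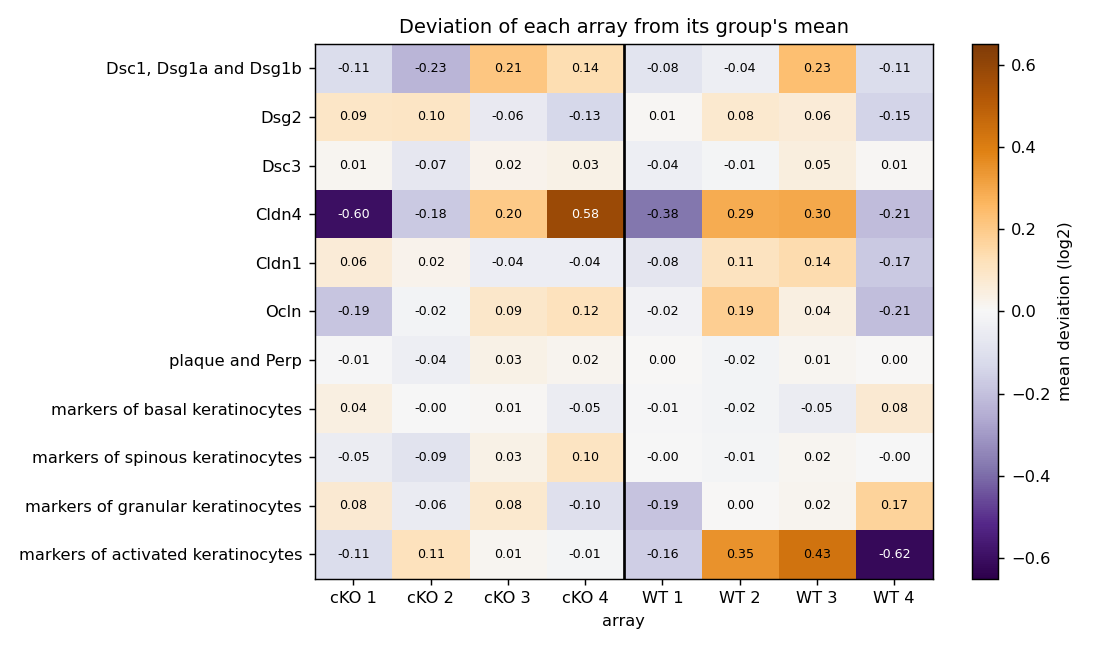
Mean deviation (log2, colour and number) of each array (columns, cKO left and WT right) from the mean of its group, for junction genes and for marker lists of keratinocyte layers (rows). Cldn4 (1 probe set) runs from -0.60 in cKO 1 to 0.58 in cKO 4, and the mean of 3 activated keratinocyte markers reaches -0.62 in WT 4. The mean over 8 plaque and Perp probe sets stays within 0.04, while single ones deviate by more. Rows average unlike numbers of probe sets, so their sizes are not directly comparable.

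Genes that work with these junctions were looked at in 6 lists, and 0 of their probe sets passed, beside 0.466% of all probe sets. At that share, a list of 15 to 67 probe sets would mostly hold 0, so the count says little about these genes. Of the adherens junction list, 17 genes were measured with 40 probe sets, at changes of -0.15 to 0.19. The largest by brightest probe set were Arvcf, a catenin, at 0.19 (SE 0.12) and vinculin (Vcl), which links the junction to actin, at -0.13 (SE 0.12). The scaffold and polarity list of tight junctions held 30 measured genes with 67 probe sets, from Mpdz, a multi-PDZ scaffold, at -0.23 (SE 0.16) to the angulin Lsr at 0.16 (SE 0.08). Among 20 measured transcription factors known to act on junction genes, Elf3 stood at -0.39 (SE 0.22) and Snai2, the repressor Slug, at -0.30 (SE 0.08, limma adjusted p = 0.238). Of 19 measured genes of junction signalling and turnover, Flot2, a flotillin, stood at 0.20 (SE 0.10).

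The keratins that desmosomes anchor, 12 genes with 15 probe sets, reached further: Krt6b, a keratin of stressed epidermis, stood at -1.01 (SE 0.38, limma adjusted p = 0.514) and Krt2, of the upper layers, at -0.86 (SE 0.29, limma adjusted p = 0.436). Krt6b read 9.14, 9.40, 9.37 and 9.43 in cKO, against 10.20, 11.02, 11.09 and 9.09 in WT, where WT 4 lay below every cKO array. These keratins passed only with certain arrays left out. Krt2 did so without WT 2 (-1.19, limma adjusted p = 0.0205). Krt6b did so without WT 4 (-1.43, limma adjusted p = 0.0152) and without both cKO 2 and WT 4. Both fits for Krt6b drop the WT array that went against its fall. In 16 of 19 alternative settings no probe set of this list passed. In the list of corneodesmosome and cornified envelope partners, 20 genes measured, the protease Klk7 stood at -0.54 (SE 0.13, limma adjusted p = 0.177). Corneodesmosin (Cdsn), the protein added to desmosomes as cells cornify, stood at -0.38 (SE 0.07, limma adjusted p = 0.0740). When 1 probe set stood for each gene, Cdsn passed (limma adjusted p = 0.0450). The median change was -0.06 in this list, beside 0.01 over all probe sets. Cdsn read 5.85 to 6.08 in cKO and 6.22 to 6.47 in WT, so that its groups did not overlap.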

How the data were processed

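Gene expression was measured on 1-colour oligonucleotide arrays in 8 samples, 4 cKO and 4 WT, grouped by their labels. The deposited log2 values per probe set are RMA values, per the submitters' processing notes. The base of the logarithm was inferred from their range of 3.06 to 13.0, and no scanner files were used to check scale or centring. Quantile normalisation, a usual step of RMA, would hide a shift of all genes together. Of 45141 rows, 104 control probe sets were left out. The platform annotation gives 28898 probe sets 1 gene, 551 several and 15588 none.

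The change of cKO against WT was fitted over all probe sets with limma 3.58.1 (lmFit, eBayes) in R 4.3.3, with a two-sided test, Benjamini-Hochberg adjustment, a threshold of 0.05 and no filter on dim probe sets. The number of arrays limits the precision. Intervals are 95% intervals of this fit, and exact permutation tests were two-sided over 70 arrangements. The procedure was tested on simulated data. Members and lists were chosen with earlier results of these data known. Values in every array are given for members with an unadjusted p under 0.05, for the 6 largest positive and negative changes, and for members that define these junctions, with a few more where said; up to 4 genes are named per list. Alternatives were the replicate block, a filter on dim probe sets, normalisation, centring, the prior, array weights, summaries per gene, leaving out probe sets of shared sequence, thresholds, and leaving out arrays.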

Additional observations from a re-analysis of the deposited data

Results flagged for a closer look

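Dixon's criterion was applied to each group of 4 arrays at the 55 member probe sets. In 5 of 110 groups 1 array stood apart, and chance gives about 1 in 20. Dsg2 read 7.92 in cKO 3 at 1 probe set, where the other cKO arrays read 8.04, and 9.16 in WT 4 at its brightest probe set, where the next array stood at 9.32. The other 4 probe sets of Dsg2 had no such array. Cldn14 read 6.39 in cKO 3, where the others read 6.44, and this array still lay above all WT arrays. WT 2 read 4.22 at Cldn16, where the next array stood at 4.11, and 4.27 at 1 of the 2 probe sets of Cldn3, where the next stood at 4.03. Cldn16 and Cldn3 are outside the upper 50% of the table by mean.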

How the results depend on the processing

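Members past the threshold numbered 0 under every setting tried except array weights, with 1, the lower-reading Dsc2 probe set (-0.39). Without any 1 array the number was 0 throughout. Over all probe sets 210 passed. The number was 132 in the upper 50% by mean, 758 with array weights, 343 at an adjusted p under 0.1 and 657 without both cKO 2 and WT 4, and it ran from 104 without WT 1 to 356 without WT 4 when single arrays were left out (131 without cKO 2, 108 without cKO 3, 112 without WT 3). With the replicate block 175 of all probe sets and 0 members passed. Same-numbered arrays correlated in their deviations with r = 0.13, 0.22, -0.62 and 0.37. With 4 arrays per group, these values cannot show whether same-numbered arrays share more than a number. The median change of the members stayed between -0.02 and 0.01. Of the 20 probe sets named by rule, 18 kept their sign under every setting that gave them a value. Perp turned to -0.00875 after a second quantile normalisation, to -0.0153 with arrays centred on their median and to -0.0103 with array weights, and ran from -0.0108 to 0.00967 when arrays were left out. F11r ran from -0.0770 without both cKO 2 and WT 4 to 0.0136 without WT 3. Of the lists, those of adherens junctions, transcription factors and junction signalling had 0 probe sets past the threshold under all settings, while the other 3 reached 1 under some. Cldn4 ran from -0.66 without cKO 4 to -0.26 without cKO 1 and never passed. The arrays give no detection call, so that levels outside the upper 50% of the table cannot be told from background.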
